A study of Rattus norvegicus with 12 samples.

Results

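The data described here are the RNA levels of 8 genes of the adrenergic, angiotensin and endothelin systems in the left ventricle of rats after coronary ligation. The genes were chosen by symbol from the 34599 genes of the count table. They are Adrb1, Adra1a and Adra1b, 3 receptors for noradrenaline and adrenaline; Grk5, a kinase that turns such receptors off; Agtr1a and Ace, a receptor for angiotensin II and the enzyme that makes it; and Edn1 and Ednra, the precursor of endothelin-1 and a receptor for it. The study placed iCarP, a flexible polyester patch with an embedded optical fibre, on the infarcted rat heart to drive photosynthesis by injected algae. RNA was sequenced from 12 male SD rats, 4 in each of 3 groups, with tissue taken 1 day after surgery. Every rat had a left thoracotomy under anaesthesia.

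Sham rats (1, 2, 3 and 5 in the labels) had no ligation of the left anterior descending (LAD) coronary artery. MI rats (1, 3, 4 and 5) had the LAD ligated and no treatment. iCarP+/Light+ rats (1, 2, 4 and 5) had the LAD ligated, Chlorella vulgaris injected into the infarcted ventricle, the patch glued to the epicardium and the heart lit without a break for a few hours after the injection, while the rat was under anaesthesia, and not until the tissue was taken. The latter group differed from the MI group in the injection itself, algae, patch, adhesive and light together, so these cannot be told apart here. No injection without algae is described for MI rats, and the time under anaesthesia may also have differed. The tissue was left ventricle, from the infarct region in ligated rats, with no sorting of cells stated. The labels give no age for these rats; the study's methods give one for its purchased male SD rats under another experiment and none where the ligation is described.

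Adrenergic receptors set the rate and force of the heartbeat. Adrb1 acts through the stimulatory G protein and cyclic AMP, and the alpha-1 receptors through Gq and phospholipase C, as do the angiotensin II and endothelin receptors. Receptor kinases such as Grk5 phosphorylate active receptors so that arrestins bind and signalling stops. Angiotensin II and endothelin-1 are vasoconstrictor peptides, and endothelial cells are the best known source of endothelin-1.

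The libraries held 14064414 to 17136958 counts on genes, and the mitochondrial genome took 22.8 to 28.9% of them in Sham, 8.52 to 11.5% among MI rats and 7.14 to 14.2% in iCarP+/Light+. Levels are given as CPM, that is, each count relative to its library's total after scaling by the trimmed mean of M values (TMM), and a gene is called changed where the adjusted p of edgeR's quasi-likelihood test was below 0.05. All 8 genes passed the filter on low counts. The labelled tissue was checked with 8 cardiomyocyte markers, all of which were detected, with a summed level of 43002.9 to 47851.7 CPM in Sham, 2684.19 to 5360.24 CPM in MI and 2159.94 to 6458.83 CPM in iCarP+/Light+. Of all 15101 genes tested, 63.8% were called between MI and Sham (30.2% higher, 33.6% lower) and 66.5% between iCarP+/Light+ and Sham (33.5% higher, 33.0% lower). Between iCarP+/Light+ and MI 13.6% were called (11.6% higher, 2.01% lower).

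Against these shares, 6 of the 8 genes were called in MI against Sham, 2 higher (Grk5 and Edn1) and 4 lower (Adrb1, Adra1a, Adra1b and Ednra). The same 6 had groups that did not overlap, as had 59.0% of all genes tested (27.6% higher, 31.4% lower). In iCarP+/Light+ against MI, Edn1 and Grk5 were called, both higher and with no overlap, where 16.4% of all genes did not overlap (12.1% higher, 4.37% lower). No gene of the 8 was called lower there; edgeR gave 3 higher and 0 lower at an unadjusted p under 0.05, and DESeq2 gave 2 higher and 0 lower. In iCarP+/Light+ against Sham 7 were called, 2 higher and 5 lower, with Agtr1a added to the lower ones, and the same 7 did not overlap, beside 63.5% of all genes (31.9% higher, 31.6% lower). The 8 genes had medians of -0.72, 0.30 and -0.72 on the log2 scale in the 3 comparisons, beside -0.06, 0.01 and 0.02 over all genes tested. The comparisons share groups, so their counts are not independent of each other. In bulk tissue, fewer cells of a type and less RNA per cell cannot be told apart.

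**Figure D1:**
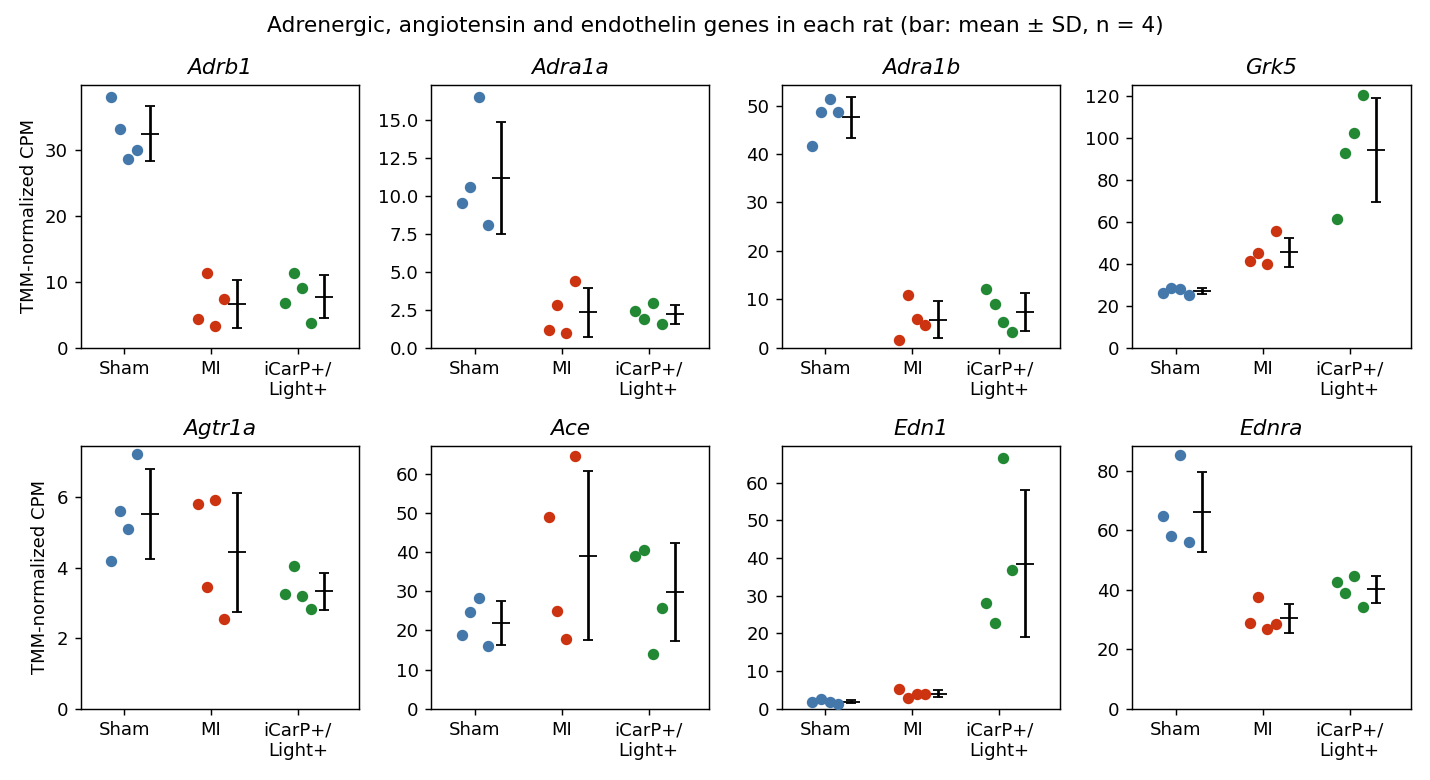
Level of each of the 8 genes in every rat (TMM-scaled CPM, linear axis from 0), with 1 point per rat and the bar showing mean ± SD (n = 4). The 4 iCarP+/Light+ rats sit at 22.7 to 66.6 CPM for Edn1 and the 4 MI rats at 2.91 to 5.27 CPM, while for Adrb1 the MI and iCarP+/Light+ points lie in the same range, below every Sham rat.

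Edn1 had the largest change of the 8 genes in both comparisons with iCarP+/Light+ rats. This gene encodes preproendothelin-1, which is cut to the vasoconstrictor endothelin-1, and is listed as ENSRNOG00000014361 on the minus strand of rn6 chr17:22137324-22143324. The 250 bases before its start, from RefSeq on GRCr8 at chr17:22666688-22666937, minus strand, are shown beside those of Grk5, GRCr8 chr1:270014086-270014335, plus strand, because these were the 2 genes called higher in all 3 comparisons. Capitals mark matches to the letters searched on both strands, read 5′ to 3′.
Edn1: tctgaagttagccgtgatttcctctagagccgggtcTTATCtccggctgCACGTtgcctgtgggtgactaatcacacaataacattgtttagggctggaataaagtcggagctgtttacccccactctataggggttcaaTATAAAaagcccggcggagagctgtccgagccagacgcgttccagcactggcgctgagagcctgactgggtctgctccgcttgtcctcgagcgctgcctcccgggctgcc
Grk5: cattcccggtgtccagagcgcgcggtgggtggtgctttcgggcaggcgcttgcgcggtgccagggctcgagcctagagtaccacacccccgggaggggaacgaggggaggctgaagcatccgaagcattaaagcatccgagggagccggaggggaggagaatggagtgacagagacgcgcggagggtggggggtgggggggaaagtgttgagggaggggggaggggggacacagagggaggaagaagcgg

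The letters searched were TATAAA for the TATA box, ACGTG for the core of the hypoxia-inducible factor motif, GATAA for GATA factors, TGANTCA for AP-1, and TGACG for one arm of the cyclic AMP response element. In the Edn1 window the TATA box began 110 bases upstream of the listed start, the hypoxia core 201 and the GATA letters 214 bases upstream, the latter pair on the reverse strand, and none overlapped another. The Grk5 window held none of the 5. Among the other 5 genes with a RefSeq entry, Adrb1 had the cyclic AMP letters at 88 bases, Agtr1a had the TATA box at 45 and the cyclic AMP letters, on the reverse strand, at 159 bases, Ace had the TATA box letters on the reverse strand at 42 bases, and Adra1b and Ednra had none; Adra1a was not matched. Of 33469 rat windows of the same length, the TATA box was in 12.9%, the hypoxia core in 16.6%, the GATA letters in 23.5%, those of AP-1 in 6.34% and those of the cyclic AMP element in 18.2%. A match describes the letters only, and binding was not measured.

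Edn1 stood at 1.81, 2.46, 1.82 and 1.33 CPM in Sham rats 1, 2, 3 and 5, from 18 to 36 counts each. In MI rats 1, 3, 4 and 5 it stood at 5.27, 2.91, 3.86 and 3.88 CPM, from 54 to 110 counts. In iCarP+/Light+ rats 1, 2, 4 and 5 it stood at 28.0, 22.7, 66.6 and 36.8 CPM, from 376 to 983 counts. No group overlapped another, and rat 4 of iCarP+/Light+ was the highest. The means were 1.85 ± 0.464, 3.98 ± 0.969 and 38.5 ± 19.6 CPM (SD, n = 4 each). Edn1 was 2.14-fold higher in MI than in Sham (log2 1.10, SE 0.35, edgeR adjusted p = 0.0138) and 9.64-fold higher in iCarP+/Light+ than in MI (log2 3.27, SE 0.33, edgeR adjusted p = 3.12e-05). It was 20.7-fold higher in iCarP+/Light+ than in Sham (log2 4.37, SE 0.36, edgeR adjusted p = 3.18e-07). With any 1 rat left out the step from MI to iCarP+/Light+ stayed between 2.87 and 3.45 on the log2 scale. With the labels' rat numbers as a block in the fit, Edn1 in MI against Sham was 0.90 and was not called (edgeR adjusted p = 0.0592).

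The other cells in the tissue were followed by marker lists. Endothelial markers (7 of 8 in the table, Pecam1 not listed there, none at 0) summed to 1717.93 to 1939.21 CPM in Sham, 784 to 1193 CPM in MI and 1000.2 to 1148 CPM in iCarP+/Light+. All 7 were lower in MI than in Sham (3 when scaled by total counts alone) and 6 (then 4) were lower in iCarP+/Light+ than in Sham. Between iCarP+/Light+ and MI 0 of 7 were called by edgeR or DESeq2, with 1 higher at an unadjusted p under 0.05. Edn1 minus the mean of these markers, both as log2 CPM centred on their means over the 12 rats, was -2.73 to -1.96 in Sham, -0.86 to 0.04 among MI rats and 2.08 to 3.66 in iCarP+/Light+, so the 3 groups did not overlap on this scale either. The summed leukocyte markers rose over the 3 groups in the same order as Edn1, but not every marker did. Of these markers 7 of 8 were in the table (Itgam was not), none was at 0, and their sum was 165 to 249 CPM in Sham, 1111 to 1712 CPM in MI and 2830 to 7123 CPM in iCarP+/Light+. All 7 were higher in MI than in Sham and 4 were called higher again from MI to iCarP+/Light+. The rise of the sum in the latter comparison came mostly from 3 genes abundant in neutrophils, S100a9 (mean 190 against 2186 CPM), S100a8 (78.9 against 813 CPM) and Csf3r (135 against 862 CPM). The monocyte and macrophage genes did not share a direction: Cd14 stood at 169 in MI and 273 CPM in iCarP+/Light+ (edgeR adjusted p = 0.0887), Csf1r at 419 and 283 CPM (edgeR adjusted p = 0.0787) and Cd68 at 181 and 138 CPM (edgeR adjusted p = 0.327). The latter pair were called lower when scaled by total counts alone (edgeR adjusted p = 0.00781 and 0.0475). The 3 red blood cell markers also rose from MI to iCarP+/Light+, with sums of 2009.15 to 5738.66 and 5226.61 to 14594.7 CPM, and stood at 6507.3 to 8607.44 CPM in Sham. Within each group, the rats ranked by leukocyte sum were not in the order of their Edn1 levels. Sham rat 5 had the lowest Edn1 (1.33 CPM) and the highest leukocyte sum (249 CPM) of its group. Rat 4 of iCarP+/Light+ had the highest Edn1 (66.6 CPM), while the highest leukocyte sum there was that of rat 5 (7123 CPM). MI rat 3 was the lowest of its group in both. The part of leukocytes and blood in the levels of Edn1 was not tested.

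**Figure D2:**
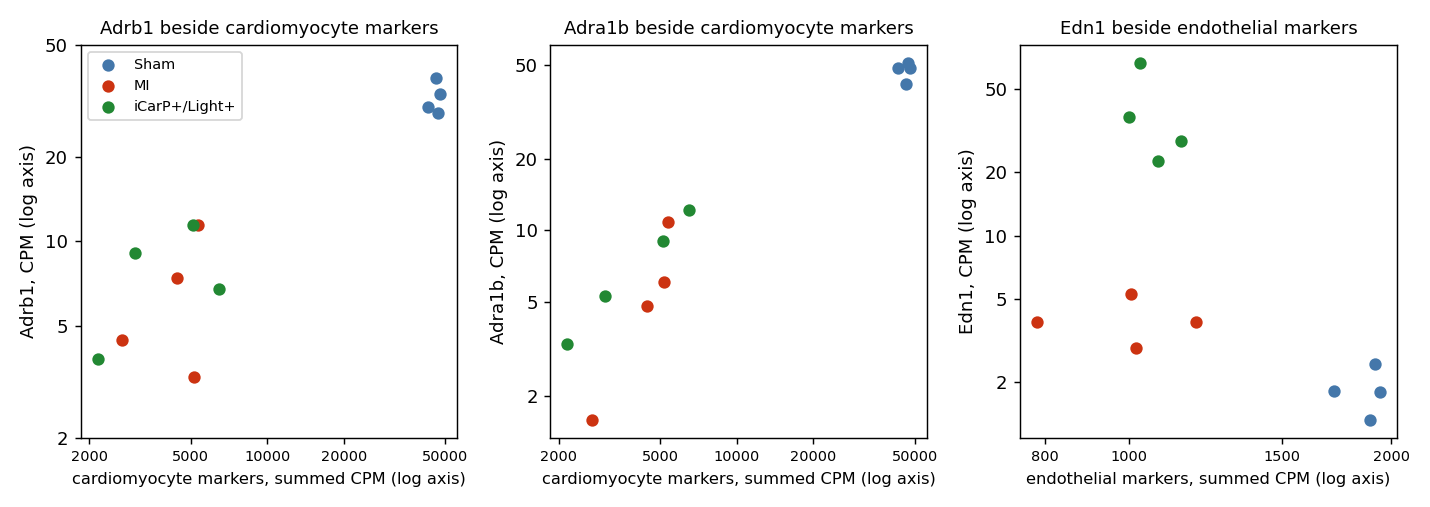
Adrb1 and Adra1b against the summed cardiomyocyte markers, and Edn1 against the summed endothelial markers (CPM, log axes), with 1 point per rat. Cardiomyocyte markers and both receptors are low in every ligated rat, whereas Edn1 is highest in the 4 iCarP+/Light+ rats at endothelial sums of 1000.2 to 1148 CPM that lie within the MI range.

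Ednra, the endothelin A receptor of smooth muscle and cardiomyocytes, is listed as ENSRNOG00000012721 on rn6 chr19:33928356-33991703, plus strand. Its level was 64.8, 57.9, 85.4 and 56.2 CPM in the Sham rats, 28.7, 37.4, 26.7 and 28.6 CPM in the MI rats and 42.7, 38.9, 44.5 and 34.3 CPM in the iCarP+/Light+ rats. Every ligated rat was below every Sham rat, and the lowest iCarP+/Light+ rat fell within the MI range. Ednra was 2.18-fold lower in MI than in Sham (log2 -1.12, SE 0.15, edgeR adjusted p = 3.25e-05) and 1.65-fold lower in iCarP+/Light+ than in Sham (log2 -0.72, SE 0.15, edgeR adjusted p = 0.00102). Between iCarP+/Light+ and MI the log2 difference was 0.40 with a 95% interval of 0.07 to 0.73 and an edgeR adjusted p of 0.111; without MI rat 3, the highest of its group, it was 0.52 with an adjusted p of 0.0491. The 8 mural markers (pericyte and smooth muscle, none at 0) summed to 901 to 998, 442 to 781 and 447 to 570 CPM in the 3 groups. Of these markers 3 were lower and 1 higher in MI than in Sham, whereas scaling by total counts alone gave 2 lower and 3 higher, and their part in the level of Ednra was not tested.

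Of the other endothelin genes, Ednrb, the endothelin B receptor, which clears endothelin-1 and is found on endothelium among other cells, was called higher from MI to iCarP+/Light+. It stood at 32.5, 39.9, 38.0 and 38.2 CPM in Sham, 34.8, 45.6, 18.4 and 31.1 CPM in MI, and 45.2, 58.1, 62.8 and 87.7 CPM in iCarP+/Light+. The log2 difference was 0.97 (SE 0.24, edgeR adjusted p = 0.0170), although MI rat 3 and iCarP+/Light+ rat 1 overlapped by a small margin; scaled by total counts alone, the adjusted p was 0.0549. Ednra counts were 1.45 to 2.24 times those of Ednrb in Sham, 0.820 to 1.45 times in MI and 0.391 to 0.945 times in iCarP+/Light+. The within-rat log2 ratio differed by -0.85 in MI against Sham and by -1.44 in iCarP+/Light+ against Sham, each with the smallest two-sided exact permutation p that 4 against 4 rats can give (0.0286; 0.0686 adjusted over the 12 ratio comparisons). From MI to iCarP+/Light+ it moved by -0.59 (exact permutation p = 0.114). None of the 12 ratio comparisons passed 0.05 after adjustment.

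Ece1, the enzyme that releases endothelin-1 from its precursor, stood at 214, 253 and 282 CPM in Sham, MI and iCarP+/Light+, and its one call was a log2 rise of 0.40 from Sham to iCarP+/Light+ (edgeR adjusted p = 0.0224). Ece2, a related enzyme, was lower in MI than in Sham at 1.71 against 3.73 CPM (log2 -1.12, edgeR adjusted p = 0.0146). Edn2 and Edn3, the other endothelin precursors, had 14 and 2 counts in all 12 libraries and were not tested. Of the 7 endothelin genes tested, 1 was higher and 2 were lower in MI than in Sham, 2 rose from MI to iCarP+/Light+, and 4 were higher and 2 lower in iCarP+/Light+ than in Sham, with median log2 fold changes of -0.19, 0.56 and 0.73. Scaling by total counts alone gave 3 higher and 1 lower in MI against Sham, 1 higher and 0 lower in iCarP+/Light+ against MI, and 4 higher and 1 lower in iCarP+/Light+ against Sham. Without iCarP+/Light+ rat 5, 1 was called in iCarP+/Light+ against MI. Without iCarP+/Light+ rat 1, 3 were called in iCarP+/Light+ against Sham.

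Grk5, a G protein-coupled receptor kinase abundant in heart, is listed as ENSRNOG00000011439 on rn6 chr1:282265370-282462605, plus strand. It was at 26.2, 28.3, 28.0 and 25.3 CPM in Sham, 41.6, 45.1, 40.1 and 55.6 CPM in MI, and 61.5, 92.8, 103 and 121 CPM in iCarP+/Light+. The groups formed 3 steps with no overlap, with iCarP+/Light+ rat 1 nearest to MI. Grk5 was 1.69-fold higher in MI than in Sham (log2 0.76, SE 0.18, edgeR adjusted p = 0.00212), 2.07-fold higher in iCarP+/Light+ than in MI (log2 1.05, SE 0.18, edgeR adjusted p = 0.00127) and 3.50-fold higher in iCarP+/Light+ than in Sham (log2 1.81, SE 0.18, edgeR adjusted p = 1.74e-06). The sum of the leukocyte markers given above stepped up in the same order, although Csf1r and Cd68 were not higher in iCarP+/Light+ than in MI, and their part in the level of Grk5 was not tested.

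Of the receptor kinases and arrestins, Grk5 alone was called between iCarP+/Light+ and MI. Grk2, the other main cardiac receptor kinase, stood at 79.8, 136 and 138 CPM in the 3 groups; it rose from Sham to MI (log2 0.77, edgeR adjusted p = 5.64e-05), and from MI to iCarP+/Light+ its log2 difference was 0.02 with a 95% interval of -0.22 to 0.26 (under total counts alone -0.25). Grk6, a relative of Grk5, was higher in MI than in Sham at 108.1 against 55.0 CPM, and Arrb2, beta-arrestin-2, at 49.5 against 11.5 CPM. Of the 7 genes in this list 6 were higher in MI than in Sham and 6 in iCarP+/Light+ than in Sham, with Grk4 the other in both. The median log2 fold changes were 0.97, 0.02 and 1.16 in MI against Sham, iCarP+/Light+ against MI and iCarP+/Light+ against Sham. Per count of Grk2, Grk5 had 0.319 to 0.372 counts in Sham, 0.273 to 0.427 among MI rats and 0.496 to 0.760 in iCarP+/Light+. This within-rat log2 ratio was higher by 1.00 in iCarP+/Light+ than in MI and by 0.98 than in Sham (two-sided exact permutation p = 0.0286 for each, 0.0686 after adjustment), and MI and Sham differed by -0.02 (exact permutation p = 0.886).

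**Figure D3:**
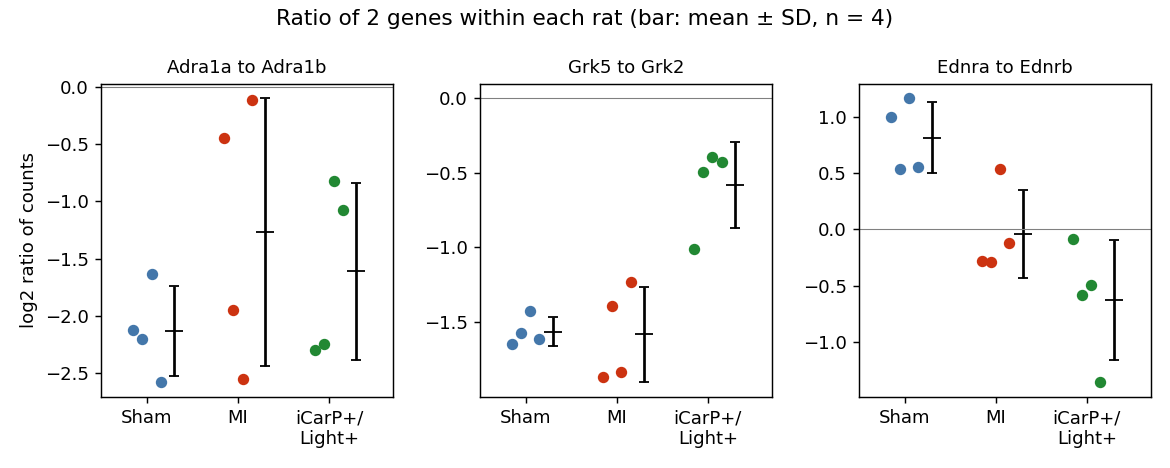
Log2 ratio of the counts of 2 genes in each rat (1 point per rat, bar showing mean ± SD, n = 4) for Adra1a to Adra1b, Grk5 to Grk2 and Ednra to Ednrb. The Grk5 to Grk2 ratio of each iCarP+/Light+ rat lies above every other rat, and the Ednra to Ednrb ratio of every Sham rat lies above every ligated rat, by a narrow margin in MI.

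The 3 adrenergic receptors were lower in both groups of ligated rats. Adrb1, the main cardiac beta receptor, is listed as ENSRNOG00000017002 on rn6 chr1:277537585-277538985, plus strand. Its level was 38.2, 33.2, 28.6 and 30.1 CPM in Sham, 4.45, 11.4, 3.30 and 7.39 CPM in MI, and 6.76, 11.4, 9.08 and 3.80 CPM in iCarP+/Light+. Every ligated rat was below every Sham rat, and the ligated groups covered nearly the same range. Adrb1 was 4.89-fold lower in MI than in Sham (log2 -2.29, SE 0.37, edgeR adjusted p = 0.0001325) and 4.18-fold lower in iCarP+/Light+ than in Sham (log2 -2.06, SE 0.37, edgeR adjusted p = 0.000272).

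Adra1a, an alpha-1 receptor of cardiomyocytes (ENSRNOG00000009522, rn6 chr15:43298794-43392451, plus strand), was at 9.54, 10.6, 16.5 and 8.11 CPM in Sham, 1.15, 2.80, 1.01 and 4.42 CPM in MI, and 2.44, 1.87, 2.98 and 1.55 CPM in iCarP+/Light+. No ligated rat reached the lowest Sham rat, and the iCarP+/Light+ rats lay inside the MI range. The fall was 4.77-fold in MI against Sham (log2 -2.25, SE 0.43, edgeR adjusted p = 0.000477) and 5.05-fold in iCarP+/Light+ against Sham (log2 -2.34, SE 0.43, edgeR adjusted p = 0.000364). Adra1b, the other alpha-1 receptor of cardiomyocytes (ENSRNOG00000060087, rn6 chr10:29392762-29450644, minus strand), was at 41.6, 48.7, 51.3 and 48.6 CPM in Sham, 1.58, 10.9, 6.04 and 4.79 CPM in MI, and 12.1, 9.004, 5.28 and 3.31 CPM in iCarP+/Light+. It had the deepest fall of the 8 genes, 8.18-fold in MI against Sham (log2 -3.03, SE 0.47, edgeR adjusted p = 9.63e-05), and was 6.37-fold lower in iCarP+/Light+ than in Sham (log2 -2.67, SE 0.47, edgeR adjusted p = 0.000223). MI rat 1 had the lowest Adra1b of all 12 rats.

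None of the 3 receptors was called between iCarP+/Light+ and MI. The 95% intervals of the log2 difference were -0.57 to 1.02 for Adrb1 (estimate 0.23, and -0.044 when scaled by total counts alone), -1.02 to 0.86 for Adra1a and -0.64 to 1.36 for Adra1b, so changes within these bounds could not be told from none with 4 rats a group. The edgeR adjusted p was 0.758, 0.934 and 0.687, in that order. The sign of the small Adrb1 and Adra1a differences turned when single rats were left out, from -0.020 without iCarP+/Light+ rat 2 to 0.62 for Adrb1 and from -0.33 to 0.42 without MI rat 5 for Adra1a, which was also 0.01 without MI rat 3. The within-rat ratio of Adra1a to Adra1b was 0.167 to 0.323 in Sham, 0.171 to 0.923 among MI rats and 0.203 to 0.567 in iCarP+/Light+, with no comparison below an exact permutation p of 0.257.

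The cardiomyocyte markers fell beside these receptors: 8 of 8 were lower in MI and in iCarP+/Light+ than in Sham, with median log2 fold changes of -3.27 and -3.12, and none was at 0 in any group. Between iCarP+/Light+ and MI 0 of 8 were called by edgeR or DESeq2, or at an unadjusted p under 0.05, and their median was 0.04. Relative to the mean of these markers (log2 CPM, centred), Adrb1 was at -1.04 to -0.58 in Sham, -0.57 to 0.75 among MI rats and -0.26 to 1.21 in iCarP+/Light+, so each ligated rat stood higher on this scale than each Sham rat, the nearest by a narrow margin. For Adra1a the same difference was -0.97 to -0.22, -0.57 to 1.16 and -0.28 to 1.24, and the groups overlapped in part. For Adra1b it was -0.50 to 0.05 in Sham, -0.87 to 0.64 among MI rats and 0.18 to 0.53 in iCarP+/Light+. Fibroblast markers summed to 4228 to 4832 CPM (Sham), 1369 to 1789 CPM (MI) and 966 to 1848 CPM (iCarP+/Light+), with 7 of 8 lower in MI than in Sham (5 when scaled by total counts alone) and none at 0. The part of lost cells in the receptor levels was not tested.

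The other adrenergic receptors fell as well. Adra1d, the alpha-1 receptor of arteries, dropped from 28.1 CPM in Sham to 2.42 CPM in MI (log2 -3.53, SE 0.37, edgeR adjusted p = 3.58e-06). Adra2b, an alpha-2 receptor, dropped from 2.90 to 0.538 CPM (log2 -2.41, edgeR adjusted p = 0.000293). All 6 receptors tested were lower in MI than in Sham (5 when scaled by total counts alone) and in iCarP+/Light+ than in Sham, with median log2 fold changes of -2.35 and -2.45. Adrb3, Adra2a and Adra2c were not tested, Adrb3 with 0 counts in every library. Between iCarP+/Light+ and MI 0 of 6 were called by the main edgeR fit, while 1 was lower at an unadjusted p under 0.05 and 1 was called lower by DESeq2. EdgeR also called 1 with DESeq2's size factors, with total counts alone, and where each library had to hold 10 counts or more of a gene. With MI rat 3 or MI rat 5 left out, 1 receptor of the 6 was called.

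**Figure D4:**
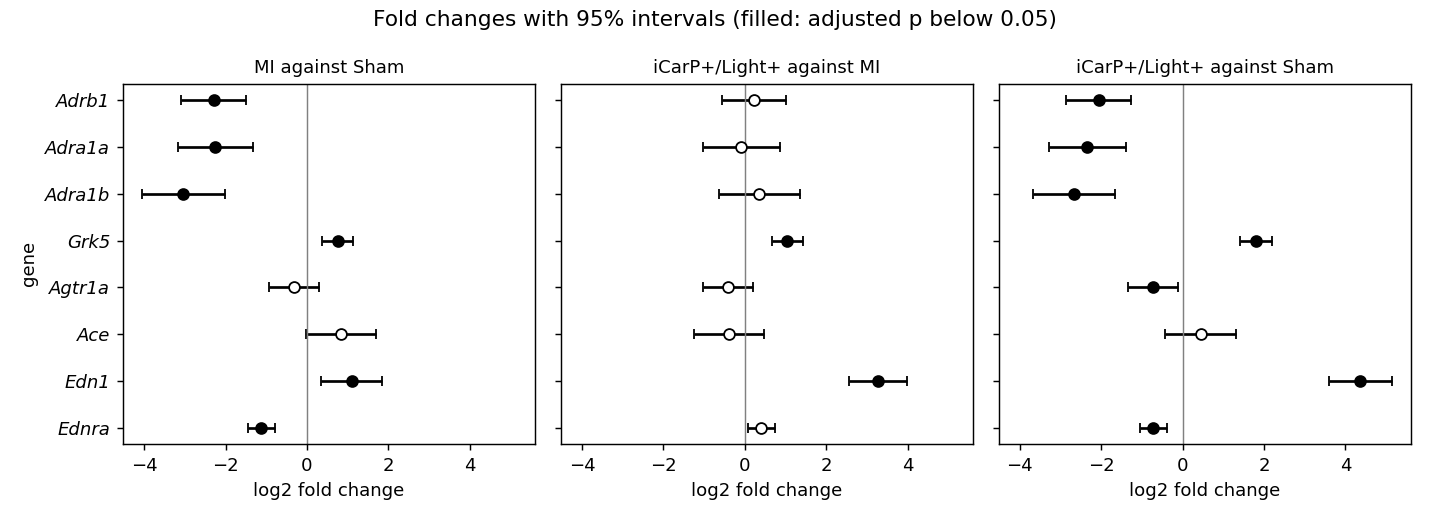
Log2 fold change of the 8 genes in each comparison with its 95% interval, filled where the edgeR adjusted p was below 0.05. Of the 8 genes, Edn1 (3.27) and Grk5 (1.05) are filled in iCarP+/Light+ against MI, and the 3 adrenergic receptors are on the lower side of both comparisons with Sham.

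Among the angiotensin genes, Agtr1a, the type 1A receptor through which angiotensin II raises blood pressure, is listed as ENSRNOG00000018346 on rn6 chr17:35907108-35958077, minus strand. It stood at 4.19, 5.60, 5.09 and 7.22 CPM in Sham, 5.79, 3.45, 5.93 and 2.55 CPM in MI, and 3.26, 4.05, 3.18 and 2.81 CPM in iCarP+/Light+. The MI rats spread over the ranges of both other groups, while the iCarP+/Light+ rats were all below the lowest Sham rat. Beside the mean of the mural markers (log2 CPM, centred) the groups overlapped. There Agtr1a was at -0.44 to 0.31 in Sham, -0.82 to 0.97 among MI rats and -0.28 to 0.12 in iCarP+/Light+. Agtr1a was 1.66-fold lower in iCarP+/Light+ than in Sham (log2 -0.73, SE 0.28, edgeR adjusted p = 0.0370). That call was lost when any of Sham rats 2, 3 or 5 or iCarP+/Light+ rats 1, 4 or 5 was left out, with adjusted p-values from 0.0507 to 0.115, and when scaled by total counts alone (edgeR adjusted p = 0.199). MI against Sham gave -0.32 (95% interval -0.92 to 0.29, and 0.25 when scaled by total counts alone) and iCarP+/Light+ against MI -0.41 (-1.03 to 0.20), neither of which passed.

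Ace, angiotensin-converting enzyme, made mainly by endothelium (ENSRNOG00000062101, rn6 chr10:94170766-94187822, plus strand), was not called in any comparison. It was at 18.7, 24.6, 28.3 and 16.0 CPM in Sham, 49.0, 25.1, 17.8 and 64.7 CPM in MI, and 39.0, 40.7, 13.9 and 25.7 CPM in iCarP+/Light+. All 3 groups overlapped: MI rats 1 and 5 stood above every Sham rat, and MI rats 3 and 4 did not. The log2 difference was 0.84 (95% interval -0.03 to 1.70) in MI against Sham with an edgeR adjusted p of 0.0834, which was 0.0233 without MI rat 4, and 0.0366 by DESeq2. In iCarP+/Light+ against MI it was -0.39 (-1.25 to 0.46), and in iCarP+/Light+ against Sham 0.45 (-0.42 to 1.31). Beside the mean of the endothelial markers (log2 CPM, centred) Ace was at -1.33 to -0.39 in Sham, -0.03 to 1.31 among MI rats and -0.66 to 0.85 in iCarP+/Light+, so each MI rat was above each Sham rat on this scale.

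Of 16 genes tested in the renin-angiotensin list, 6 were higher and 3 lower in MI than in Sham, 0 higher and 2 lower in iCarP+/Light+ than in MI, and 7 higher and 6 lower in iCarP+/Light+ than in Sham, with medians of 0.07, -0.13 and 0.40. Of the 2 lower in iCarP+/Light+ than in MI, Rnpep, an aminopeptidase, stood at 74.3 CPM in MI and 55.6 CPM in iCarP+/Light+; edgeR gave 1 higher and 3 lower at an unadjusted p under 0.05, and DESeq2 0 higher and 2 lower. Without MI rat 5, without iCarP+/Light+ rat 4, or with only the rats of the compared groups in the fit, 1 gene was called. Anpep, the aminopeptidase that shortens angiotensin III, rose from 40.3 to 404 CPM between Sham and MI, and Enpep, which makes angiotensin III, fell from 99.96 to 27.6 CPM. Atp6ap2, the prorenin receptor, rose from 39.9 to 178 CPM. Agt, the angiotensin precursor, was at 1.79, 0.925 and 0.940 CPM and was not called in any comparison. Agtr1b and Agtr2, the other angiotensin II receptors, had 0 counts in all 12 libraries, where the floor of 3 counts lies at 0.144 to 0.228 CPM.

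Downstream of the receptors, the list of G proteins and effectors had 35 loci tested (Gnas stands at 2 loci). In MI against Sham 10 were higher and 15 lower with a median log2 fold change of -0.31, whereas scaling by total counts alone gave 17 higher and 11 lower. Prkaca, a catalytic subunit of protein kinase A, fell from 307 to 71.6 CPM, Adcy5, a major cardiac adenylyl cyclase, from 247 to 40.6 CPM, and Prkce, protein kinase C epsilon, from 27.0 to 4.06 CPM. From MI to iCarP+/Light+ 7 were higher and 1 lower, whereas scaling by total counts alone gave 5 higher and 3 lower. Pde4b, a phosphodiesterase that degrades cyclic AMP, rose from 20.4 to 82.7 CPM (log2 2.02, edgeR adjusted p = 0.000405). Prkcd, protein kinase C delta, rose from 54.8 to 153 CPM, and Rgs3, which shortens G protein signals, from 71.3 to 126 CPM. The gene called lower under the main scaling was Gna12, a G protein alpha subunit, at 403 against 291 CPM, named here after its value was seen.

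Genes that make, take up and break down catecholamines had 7 of 10 members tested, 2 higher and 4 lower in both comparisons with Sham (3 and 3 in MI, and 3 and 4 in iCarP+/Light+, when scaled by total counts alone) and 0 called between iCarP+/Light+ and MI, where edgeR at an unadjusted p under 0.05 and DESeq2 also gave 0. Without iCarP+/Light+ rat 4, 1 was called between iCarP+/Light+ and MI. Slc22a3, a transporter that takes noradrenaline into heart cells, fell from 8.21 to 0.537 CPM in MI, and Ddc, which makes dopamine, from 41.7 to 4.70 CPM. Over all 6 lists without the 8 genes, 70 loci were tested, of which 23 were higher and 26 lower in MI than in Sham, 8 higher and 3 lower from MI to iCarP+/Light+, and 30 higher and 28 lower in iCarP+/Light+ than in Sham. Among all 15101 genes tested, 30.2% were higher and 33.6% lower in MI than in Sham, and 11.6% and 2.01% from MI to iCarP+/Light+. For iCarP+/Light+ against Sham the shares were 33.5% and 33.0%. The counts of each single list stand beside the same shares.

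**Figure D5:**
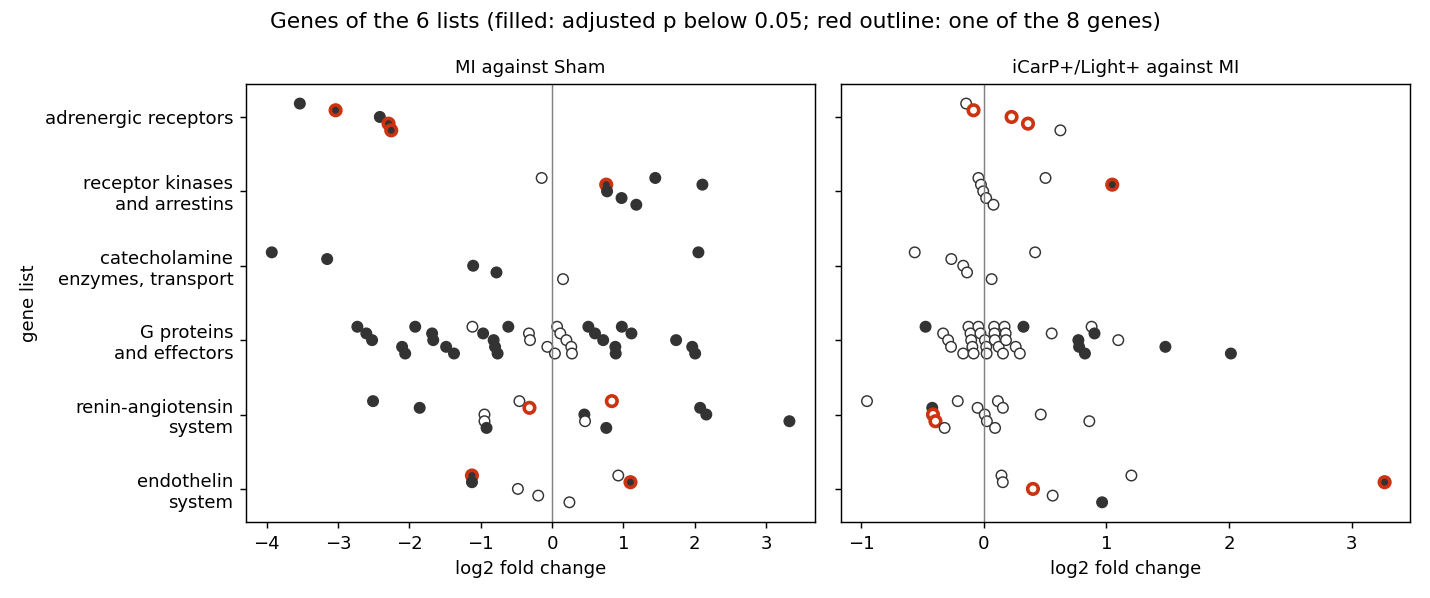
Log2 fold change of the tested genes of the 6 lists in MI against Sham and in iCarP+/Light+ against MI, with 1 point per gene, filled where the adjusted p was below 0.05 and outlined in red for the 8 genes. Every adrenergic receptor drawn lies below 0 in MI against Sham, and Edn1 stands apart at 3.27 in iCarP+/Light+ against MI. The lists' genes that are not reported here are not drawn.

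Levels can be compared between the 8 genes only per length. In Sham the order in CPM per kilobase was Adrb1 (23.2), Adra1b (19.1), Ednra (13.0), Grk5 (11.5), Ace (5.82), Adra1a (5.49), Agtr1a (2.53) and Edn1 (1.33); neighbours overlapped over the rats except Grk5 and Ace, Adra1a and Agtr1a, and Agtr1a and Edn1. In MI it was Grk5 (19.4), Ace (10.4), Ednra (5.97), Adrb1 (4.74), Edn1 (2.86), Adra1b (2.34), Agtr1a (2.03) and Adra1a (1.15), with every pair of neighbours overlapping. In iCarP+/Light+ Grk5 (40.1) and Edn1 (27.7) led, followed by Ace (7.92), Ednra (7.89), Adrb1 (5.54), Adra1b (2.98), Agtr1a (1.52) and Adra1a (1.08), and only Edn1 and Ace did not overlap. Edn1 thus moved from the last of the 8 places in Sham to the second in iCarP+/Light+, and Adrb1 from the first to the fifth.

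For each gene the most similar patterns over the 12 rats were sought among 10721 or 10722 other protein-coding genes, by the root mean square difference of centred log2 CPM. Nearest to Edn1 were LOC691143 (0.34) and Pim1 (0.49), with mean levels of 12.8, 19.8 and 229 CPM and of 9.95, 18.6 and 240 CPM in Sham, MI and iCarP+/Light+. Nearest to Grk5 were Synj1 (0.17) and Dot1l (0.19), and nearest to Ednra were Tmem80 (0.16) and Ginm1 (0.17). For Adrb1 they were Arhgap44 (0.22) and Cxxc4 (0.25), for Adra1a Nr3c2 (0.30) and Limch1 (0.34), and for Adra1b Mylk3 (0.31) and AC119580.1 (0.32). Nr3c2, the mineralocorticoid receptor, went from 12.2 CPM in Sham to 2.14 and 1.85 CPM, and Mylk3, the cardiac myosin light chain kinase, from 401 to 53.2 and 62.1 CPM. For Agtr1a they were Rfk (0.25) and Gyg1 (0.26), and for Ace Tanc2 (0.37) and Phf24 (0.38).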

How the data were processed

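RNA of 12 rat left ventricles (Trizol, NEBNext Ultra RNA kit) was analysed. Per the submitters' processing notes the authors used HISAT2, featureCounts and the rn6 build and deposited raw counts per gene; versions, annotation release and strand setting are not given in the sources used here. Groups were taken from the labels. Counts were analysed with edgeR 4.0.16 (R 4.3.3, limma 3.58.1): filterByExpr with a minimum count of 10 and 3 groups kept 15101 of 34599 genes, TMM scaling followed, and the quasi-likelihood test was fitted to all 12 rats with 1 mean per group and Benjamini-Hochberg adjustment over all genes tested at 0.05. The study's methods name general tests for its group comparisons and none specific to sequencing counts. The test gives no standard error, so each SE was derived as the size of the log2 fold change over the square root of F. The 95% intervals used this SE with a t quantile. Log2 CPM used a prior count of 2. Ratios of 2 genes in a rat (0.5 added to each count) were compared by two-sided exact permutation over 70 arrangements and adjusted over 12 comparisons.

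The 8 genes and the lists were chosen with earlier results of these data known. Besides the 8 genes and their relatives, each list's 3 genes with the smallest adjusted p below 0.05 in MI against Sham and in iCarP+/Light+ against MI are named, except a few that are not reported here, with marker genes and, per gene, the 2 nearest patterns among genes of at least 5 CPM. Marker lists for Schwann cells, mesothelium, adipocytes and sympathetic or chromaffin cells were also looked at. Promoters came from RefSeq (GRCr8), for 7 of the 8 genes. Alternatives were DESeq2 1.42.0, other scalings, other filters, other samples in the fit, a replicate block and leaving out each rat. Libraries held 14064414 to 17136958 counts; intervals cover the spread between these rats. The 18 pairs of rats within a group differed by more than sampling noise (chi-square per gene 14.8 to 119), so each was counted once. The script was tested on simulated data. A snoRNA on the other strand overlaps Grk5, with 1 count in all. The labels say only that libraries are of separate numbers within a group, so p-values measure the spread between these libraries.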

Additional observations from a re-analysis of the deposited data

How the results depend on the processing

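Of 192 values of the 8 genes under the 8 other fits, 181 stayed on the same side of 0 and of the 0.05 threshold, as did 277 of 288 with 1 rat left out; all 12 ratio values did so with no added count. Edn1 and Grk5 were called in iCarP+/Light+ against MI in every fit. With total counts alone, Agtr1a turned to 0.25 in MI against Sham, Ace passed there at 1.44 (adjusted p = 0.00709), Adrb1 turned to -0.044 in iCarP+/Light+ against MI, and Agtr1a was -0.42 in iCarP+/Light+ against Sham and did not pass. That scaling moved the median of all genes to 0.52, -0.25 and 0.33 in MI against Sham, iCarP+/Light+ against MI and iCarP+/Light+ against Sham, and called 3926 genes in iCarP+/Light+ against MI against 2051; the higher share of calls was 30.67% in place of 85.18% there, 73.52% in place of 47.26% in MI against Sham, and 64.68% in place of 50.34% in iCarP+/Light+ against Sham. The higher share in iCarP+/Light+ against MI was 70.79% with DESeq2 and 72.43% where each library had to hold 10 counts or more of a gene. Ace in MI against Sham passed with DESeq2 (0.91, adjusted p = 0.0366) and with only the rats of the compared groups (0.98, adjusted p = 0.0431). Without a filter on low counts, Agtr1a was -0.71 in iCarP+/Light+ against Sham (adjusted p = 0.0554). The cause of these changes was not tested.

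The labels share replicate numbers across groups and do not say whether these pair the rats. None of 9 same-numbered pairs deviated together (correlations -0.15 to 0.07). Such correlations over all genes cannot exclude a pairing, so the block is given as an alternative. With the replicate block, Ace in MI against Sham was 1.11 (adjusted p = 0.0198), Edn1 there 0.90 (adjusted p = 0.0592), Adra1a in iCarP+/Light+ against MI 0.23, Ednra there 0.54 (adjusted p = 0.0219), and 1298 genes were called in iCarP+/Light+ against MI, with 0 of the 2 renin-angiotensin calls kept.

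With 1 rat left out, the log2 fold change ranged from 0.49 to 1.08 for Ace in MI against Sham; in iCarP+/Light+ against MI from -0.020 to 0.62 for Adrb1, from -0.33 to 0.42 for Adra1a and from 0.34 to 0.52 for Ednra; and in iCarP+/Light+ against Sham from -0.84 to -0.57 for Agtr1a, which was called in 6 of 12 fits. With 4 rats a group, the exact test cannot go below 0.0286, and Edn1 in Sham rests on 18 to 36 counts a rat.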

Other observations

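Dbh, which makes noradrenaline from dopamine, was higher in the ligated rats while Th, the first enzyme of the same route, was at 0 to 5 counts in every library. Dbh stood at 2.02, 1.23, 2.50 and 2.06 CPM in Sham, 7.18, 12.03, 5.59 and 7.61 CPM in MI, and 6.51, 4.47, 7.59 and 3.38 CPM in iCarP+/Light+, with each ligated rat above each Sham rat (log2 2.05, SE 0.33, edgeR adjusted p = 0.00011 in MI against Sham). Npy and Chga, which mark sympathetic neurons and chromaffin cells, had 0 counts in all 12 libraries. The 4 Schwann cell markers summed to 14.0 to 20.0003 CPM in Sham, 8.46 to 10.9 CPM in MI and 8.33 to 13.6 CPM in iCarP+/Light+, with 1 of 4 lower in MI than in Sham. Of 2 mesothelial markers tested 1 was lower in MI than in Sham, and none of the 3 adipocyte markers was tested, their sum being at most 1.27 CPM in a rat.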
